A study of Mus musculus with 8 samples.

Results

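The 56 genes described here encode lysosomal hydrolases, their lumenal helper proteins, lysosomal membrane proteins, subunits of the vacuolar proton pump (V-ATPase) and transcription factors of the TFEB family. They were taken by name from a fixed list of lysosomal genes, out of 55335 gene identifiers in the deposited table. The rule that took them uses names alone, but the list was drawn up with earlier results of these data known. By role they fall into 27 hydrolases, 4 lumenal cofactors, 7 membrane proteins, 15 V-ATPase genes and 3 TFEB-family genes. The cathepsin genes B, D, K, L, S and Z were not part of the list. The cells were MC3T3-E1, a pre-osteoblast line established from mouse calvaria. They were cultured for 3 days with TABS, which the labels spell out as a Trio-Active bone scaffold without naming its composition (4 libraries), or with HA, a scaffold of magnesium-doped hydroxyapatite (4 libraries). Every library came from cells on one of these scaffolds, so each difference is relative between them and does not show which scaffold moved a gene. The labels do not say whether the 4 libraries of a group came from separate cultures. The p-values therefore cover the spread among these libraries alone, and that spread may be technical.

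Lysosomes break down proteins, lipids and sugar chains that reach them by endocytosis and autophagy. Their enzymes work in an acidic lumen that the V-ATPase maintains, and most of them are carried there from the Golgi by receptors for mannose 6-phosphate. TFEB, TFE3 and MITF are transcription factors that bind E-box motifs near the start sites of many lysosomal genes, and their activity is set largely by whether they are held in the cytosol, which transcript levels do not show. In osteoblasts, lysosomal enzymes turn over collagen and proteoglycans taken up from the matrix.

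Because the list joins a transcription factor family with genes known to carry its motif, the start-site sequences were read first. RefSeq windows on GRCm38.p6, which reach from 250 bases before to 50 bases after a start site, were held for 48 of the 56 genes. The motif searched was CACGTG, which reads the same on both strands, and its longer form TCACGTGA, which contains it. CACGTG was found in 15 of the 48 genes (31.2%), against 8.09% of the 27025 genes with a window and 12.3% of the 8288 genes that were also tested for expression. TCACGTGA was found in 7 of the 48 (14.6%), against 1.12% and 2.51%. By role, CACGTG was present in 8 of 24 hydrolases, 3 of 6 membrane proteins, 4 of 11 V-ATPase genes, 0 of 4 lumenal cofactors and 0 of 3 TFEB-family genes. A match is a description of these letters and not evidence that a factor binds there. The stretches below are shown because Ctsa and Sgsh are the 2 genes that both rose in TABS and hold the motif, while the remaining ones represent each role among the genes that hold it and did not pass the test. Each is written 5′ to 3′ on the gene's own strand, with CACGTG in capitals.
Ctsa, chr2:164833758-164833786, plus strand: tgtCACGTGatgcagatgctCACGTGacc
Sgsh, chr11:119355522-119355551, minus strand: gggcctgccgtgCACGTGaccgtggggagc
Gla, chrX:134601182-134601244, minus strand: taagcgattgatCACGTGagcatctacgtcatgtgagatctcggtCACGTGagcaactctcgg
Glb1, chr9:114401018-114401047, plus strand: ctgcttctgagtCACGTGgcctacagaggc
Lamp1, chr8:13159088-13159160, plus strand: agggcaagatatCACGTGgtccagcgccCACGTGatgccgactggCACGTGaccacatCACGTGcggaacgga
Mcoln1, chr8:3500436-3500491, plus strand: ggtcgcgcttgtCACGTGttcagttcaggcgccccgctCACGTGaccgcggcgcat
Atp6v0d1, chr8:105566050-105566079, minus strand: ccctactgcggtCACGTGagacgcggtgcg
Atp6v1a, chr16:44139373-44139402, minus strand: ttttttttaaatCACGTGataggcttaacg
The Lamp1 stretch holds 4 copies, which begin between 61 and 15 bases before the start site, and is the one with the most copies among the 15 genes. In Ctsa the 2 copies straddle the start site, in Sgsh the single copy begins 29 bases before it, and in Atp6v0d1 it begins 3 bases before it. The 13 tested genes of the list that hold it had a median log2 fold change of 0.09, as had the 31 that do not. Of the genes that rose, 2 of the 6 with a window held it.

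Expression was given as FPKM (fragments per kilobase of transcript, scaled to the library), so levels of different genes are per length. A gene entered the test where it reached 1 FPKM in at least 4 of the 8 libraries, which 52 of the 56 did. Ctsc and Ctsf, the genes of cathepsins C and F, were listed at 0 in all 8 libraries. Cln3, a lysosomal membrane protein gene mutated in juvenile Batten disease, ran from 0 to 0.038 FPKM, and Gm2a, the GM2 ganglioside activator, from 0.415 to 0.647. Differences are given as log2(FPKM + 1) in TABS less that in HA, called the log2 fold change, and this scale understates changes of genes with low FPKM. A gene was called changed at a Benjamini-Hochberg adjusted p under 0.05 in limma, adjusted over all 11280 genes tested.

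On this test, 8 of the 52 genes rose in TABS and 0 fell. The 8 were 7 hydrolases (Lipa, Ctsa, Idua, Sgsh, Tpp1, Gusb and Galns) and the membrane cholesterol transporter Npc1, with log2 fold changes from 0.15 to 0.45. Over all tested genes, 4.49% were called higher and 2.90% lower. Among the genes of the list 15.4% were called higher, and at an unadjusted p under 0.05 the counts were 21 higher (40.4%) and 1 lower (1.92%), against 13.2% and 10.8% of all tested genes. The median log2 fold change of the 52 was 0.09, against 0.01 over all tested genes, and 43 of them (82.7%) had a positive value, against 52.0% of all. Every TABS library lay above every HA library in 20 of the 52 genes (38.5%), against 10.8% of all tested genes. The reverse held for 1 gene (1.92%), against 7.15%. Genes of the list were also more abundant than the background. Their median level was 32.8 FPKM on TABS and 29.6 on HA, against 6.99 and 6.96 for all tested genes. The part of this difference in level in these shares was not tested. Because the libraries are of whole cultures, more cells of a kind and more RNA per cell cannot be told apart.

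The count of 8 depended on which libraries entered. It was 3 without TABS 1, TABS 3 or TABS 4, 4 without TABS 2, 5 without HA 2 or HA 3, 6 without HA 4 and 7 without HA 1, and the count of genes that fell was 0 in each. Among all tested genes, 247 to 429 were called higher with 1 library left out, against 506 with all 8. With the replicate numbers fitted as a block, 2 genes of the list (Lipa and Npc1) and 136 of all tested genes were higher. That block lost the calls on Ctsa, Tpp1, Idua, Sgsh, Gusb and Galns (limma adjusted p from 0.0567 to 0.162). Median-of-ratios scaling gave 7 genes of the list (445 of all tested genes) and quantile normalization 10 (529). Among the scalings, TPM moved the count most. Rescaled to TPM, 17 genes of the list were called higher, beside 8.11% of all genes called higher and 2.12% called lower, so that 79.3% of all calls were then higher, against 60.7% with FPKM as deposited.

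**Figure D1:**
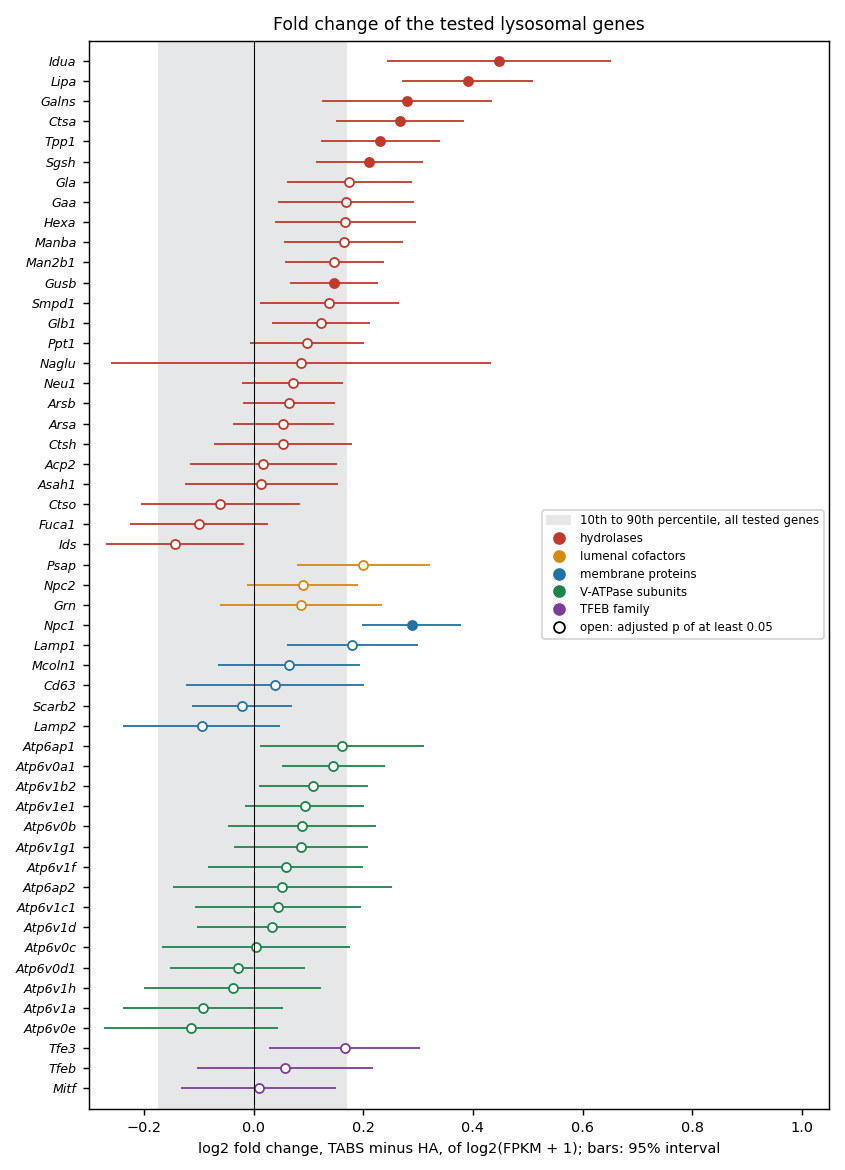
Log2 fold change (TABS minus HA, x axis) of each of the 52 tested genes, with its 95% interval, coloured by role, filled where the gene passed the test. The filled points are 7 hydrolases and Npc1, all right of 0, while the 15 V-ATPase genes lie between -0.11 and 0.16; the grey band spans the 10th to 90th percentile of all tested genes (-0.17 to 0.17).

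Hydrolases held 7 of the 8 calls: 7 of 25 tested rose (28%, against 4.49% of all tested genes) and 0 fell (against 2.90%). Their median log2 fold change was 0.14. At an unadjusted limma p under 0.05, 14 were higher (56%) and 1 lower (4%), against 13.2% and 10.8% of all tested genes. The count called was 13 after rescaling to TPM, where 8.11% of all tested genes were called higher. With 1 library left out, 247 to 429 of all tested genes were called higher, against 506. The hydrolase count was then 2 without TABS 1, TABS 3 or TABS 4, 3 without TABS 2, 4 without HA 2 or HA 3, 5 without HA 4 and 6 without HA 1. Lipa, the acid lipase that frees cholesterol and fatty acids from lipids delivered by endocytosis, had the smallest adjusted p. Lipa stood at 23.3, 23.3, 23.0 and 22.4 FPKM in TABS 1 to 4 and at 15.5, 18.2, 17.6 and 18.02 in HA 1 to 4. All 4 TABS values lay above all 4 HA values, and the mean was 1.33 times higher (23.0 ± 0.413 FPKM on TABS and 17.3 ± 1.24 on HA, mean ± SD of n = 4; log2 fold change 0.39 with SE 0.05, limma adjusted p = 0.00348). The call on Lipa held in all 19 alternative settings, with an adjusted p of at most 0.0321. Lipa (ENSMUSG00000024781) is a protein-coding gene on chromosome 19 of GRCm38, from 34492318 to 34527474 on the minus strand.

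Ctsa and Tpp1 were the proteases that rose, 2 of 4 tested (50%, against 4.49% of all tested genes), and 0 fell. Ctsa encodes cathepsin A, a carboxypeptidase that also protects beta-galactosidase and neuraminidase in a complex. In HA 1 to 4 Ctsa measured 51.6, 54.2, 49.8 and 47.4 FPKM, and in TABS 1 to 4 64.5, 60.7, 61.5 and 58.2. The lowest TABS value, 58.2, was above the highest HA value, 54.2 (log2 fold change 0.27 with SE 0.05, limma adjusted p = 0.0166). The call was lost without TABS 1 or without TABS 3 (adjusted p = 0.0521 for each in limma). It was also lost with the replicate numbers fitted as a block (limma adjusted p = 0.0567). Exons of Ctsa (chromosome 2, from 164832873 to 164841032) share 495 of their 4715 bases with those of Pltp, whose level did not pass the test (153 ± 7.75 FPKM on TABS and 158 ± 13.5 on HA, mean ± SD of n = 4, log2 fold change -0.04, limma adjusted p = 0.760). Tpp1 encodes tripeptidyl peptidase, an exopeptidase lost in a form of neuronal ceroid lipofuscinosis. TABS 1 to 4 gave 46.9, 44.1, 45.5 and 46.0 FPKM for Tpp1, and HA 1 to 4 gave 36.7, 41.9, 38.8 and 37.7. The groups did not overlap (log2 fold change 0.23 with SE 0.05, limma adjusted p = 0.0228). The call on Tpp1 (chromosome 7, from 105744811 to 105752235) was lost without TABS 1, TABS 3, TABS 4, HA 3 or HA 4, with adjusted p from 0.0529 to 0.0688 in limma. The other tested proteases, Ctsh and Ctso, had log2 fold changes of 0.05 and -0.06.

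Each hydrolase was placed in a single substrate group, so enzymes of other groups may also act on glycosaminoglycans, the sugar chains of proteoglycans. The glycosaminoglycan group held 7 hydrolases. Of these 4 rose (57.1%, against 4.49% of all tested genes) and 0 fell (against 2.90%). Idua, alpha-L-iduronidase, acts on heparan and dermatan sulfate. Idua stood at 2.25, 2.15, 1.49 and 2.35 FPKM in TABS 1 to 4 and at 1.26, 1.12, 1.25 and 1.29 in HA 1 to 4. The TABS values spread widely, and the lowest of them, in TABS 3, stood just above the highest HA value (2.06 ± 0.386 FPKM on TABS and 1.23 ± 0.0746 on HA, mean ± SD of n = 4; log2 fold change 0.45 with SE 0.09, limma adjusted p = 0.0202). Idua was the least abundant of the genes that rose, and its call was lost without TABS 1, TABS 2, TABS 4 or HA 2 (adjusted p from 0.0558 to 0.0599 in limma), and with no filter on low FPKM (0.0722). Sgsh, a sulfatase of heparan sulfate, showed a narrower spread. In HA 1 to 4 Sgsh measured 14.0, 14.2, 14.2 and 13.0 FPKM, and in TABS 1 to 4 15.8, 16.9, 15.9 and 16.2. The groups did not overlap (log2 fold change 0.21 with SE 0.04, limma adjusted p = 0.0217), and the call was lost without TABS 2, TABS 3 or TABS 4 (adjusted p = 0.0650, 0.0528 and 0.0617 in limma). Sgsh shares 955 of its 4414 exon bases with Card14, at 0.478 ± 0.023 FPKM on TABS and 0.404 ± 0.036 on HA (mean ± SD, n = 4). Idua lies on chromosome 5 from 108660331 to 108684557 and Sgsh on chromosome 11 from 119343425 to 119355536.

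Gusb encodes beta-glucuronidase, which removes glucuronic acid from several of these chains. TABS 1 to 4 gave 32.7, 32.1, 33.0 and 33.0 FPKM for Gusb, and HA 1 to 4 gave 28.8, 30.3, 29.8 and 28.9. The HA and TABS values were separated by a small gap (log2 fold change 0.15 with SE 0.04, limma adjusted p = 0.0406), and the call was lost when any one of the 8 libraries was left out (adjusted p from 0.0614 to 0.112 in limma) or the variance trend was dropped (0.0529). With a library left out, the log2 fold change of Gusb ran from 0.14 to 0.16. Galns removes sulfate from keratan and chondroitin sulfate. Galns stood at 18.5, 17.4, 17.6 and 17.5 FPKM in TABS 1 to 4 and at 15.4, 15.2, 15.2 and 12.3 in HA 1 to 4. HA 4 stood below the other HA libraries and TABS 1 above the other TABS libraries (log2 fold change 0.28 with SE 0.07, limma adjusted p = 0.0430). The call on Galns was lost when any one TABS library, HA 2 or HA 3 was left out (adjusted p from 0.0665 to 0.108 in limma). It was also lost without the low-FPKM filter (0.105), with median-of-ratios scaling (0.0524) and with quantile normalization (0.0510). Gusb lies on chromosome 5 from 129989011 to 130003049 and Galns on chromosome 8 from 122578242 to 122611463, both on the minus strand.

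The 4 calls among these glycosaminoglycan enzymes became 1 without TABS 1, TABS 3 or HA 2, 0 without TABS 2 or TABS 4, 2 without HA 3 and 3 without HA 1 or HA 4. Among all tested genes, 247 to 429 were then called higher, against 506 with every library. The median log2 fold change of the 7 enzymes ran from 0.14 to 0.18 with 1 library left out, against 0.15 with every library. The remaining 3 of the 7 enzymes did not pass. Arsb, arylsulfatase B, had a log2 fold change of 0.06 (adjusted p = 0.322 in limma). Ids, iduronate 2-sulfatase, was the one gene of the list with every TABS library below every HA library (34.0 to 35.4 FPKM against 35.9 to 42.8; log2 fold change -0.14 with SE 0.06, limma adjusted p = 0.158). Naglu, alpha-N-acetylglucosaminidase, varied most among the hydrolases that did not pass: it ran between 26.9 and 44.2 FPKM on TABS, with TABS 3 highest, and between 27.8 and 36.5 on HA (log2 fold change 0.09, 95% interval -0.26 to 0.43). The difference between this group of enzymes and the other hydrolases was not tested.

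**Figure D2:**
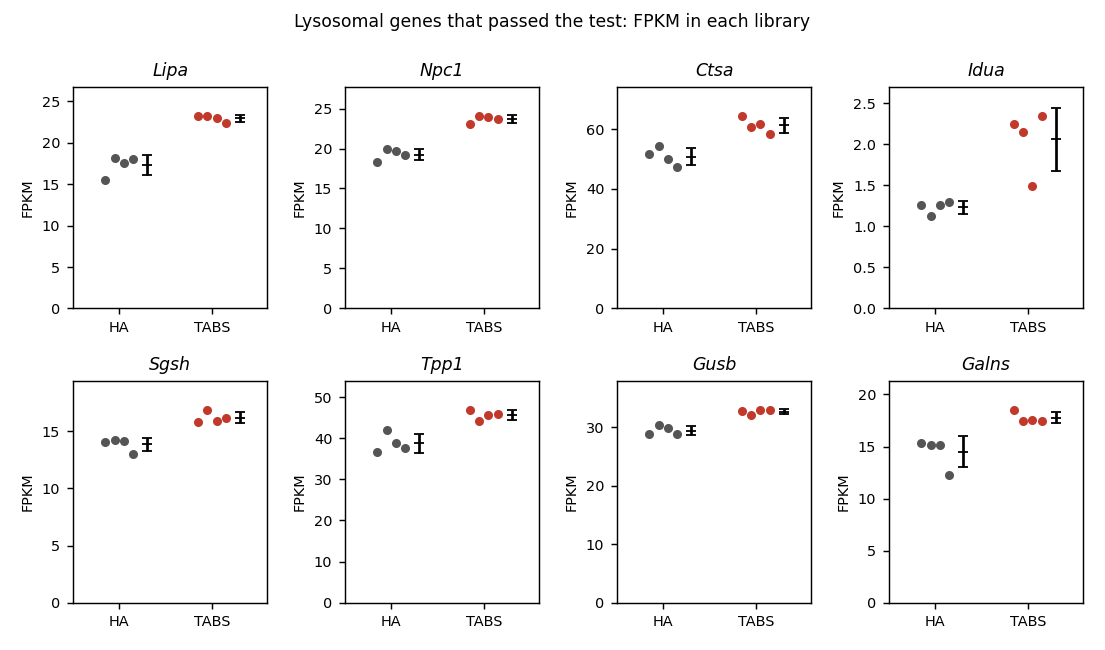
FPKM (y axis, from 0) of the 8 genes that rose, in each HA library (grey) and each TABS library (red), with the mean and SD of 4 libraries beside the points. In each panel the lowest TABS point is above the highest HA point; the gap is narrow in Idua, where TABS 3 is 1.49 FPKM and the highest HA library 1.29.

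Among 8 hydrolases of lipids and glycolipids, Lipa was the one that rose (12.5%, against 4.49% of all tested genes). All 8 had a positive log2 fold change (0.01 to 0.39), against 52.0% of all tested genes. Gla (alpha-galactosidase A), Glb1 (beta-galactosidase) and Hexa (the alpha subunit of beta-hexosaminidase) had every TABS library above every HA library without passing the test. With Lipa, this separation held for 4 of the 8 (50%), against 10.8% of all tested genes. Hexa was the most abundant hydrolase, at 177 ± 7.03 FPKM on TABS and 158 ± 10.6 on HA, mean ± SD of n = 4 (log2 fold change 0.17, limma adjusted p = 0.111). Gla ran between 13.2 and 15.0 FPKM on TABS and between 11.9 and 12.9 on HA (0.17, adjusted p = 0.0705 in limma), and Glb1 from 32.1 to 34.3 and from 30.1 to 31.8 (0.12, adjusted p = 0.0969). Smpd1, acid sphingomyelinase, and Ppt1, a palmitoyl thioesterase, overlapped between groups (0.14 and 0.10). Values near 0 were found for Arsa, arylsulfatase A (0.05), and Asah1, acid ceramidase (0.01, 95% interval -0.13 to 0.15).

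Of 5 hydrolases of glycoproteins and glycogen, 0 were called in limma, where 4.49% of all tested genes were called higher and 2.90% lower. At an unadjusted p under 0.05, 3 were higher and 0 lower (60% and 0%, against 13.2% and 10.8% of all tested genes). Man2b1 and Manba, the alpha- and beta-mannosidases, came closest: Man2b1 ran between 15.0 and 16.3 FPKM on TABS and between 13.6 and 14.3 on HA (log2 fold change 0.15, limma adjusted p = 0.0579), and Manba from 4.99 to 5.25 and from 4.12 to 4.74 (0.16, adjusted p = 0.0738). Gaa, the acid glucosidase that degrades glycogen, stood at 136 ± 6.83 FPKM on TABS and 121 ± 6.98 on HA, mean ± SD of n = 4 (0.17, limma adjusted p = 0.0986). In these 3 genes and in Neu1, a sialidase (0.07), all TABS libraries were above all HA libraries. This held for 4 of the 5 (80%), against 10.8% of all tested genes. Fuca1, alpha-L-fucosidase, had a negative log2 fold change with overlapping groups (-0.10, limma adjusted p = 0.310). Acp2, a lysosomal acid phosphatase, differed by 0.02 (95% interval -0.12 to 0.15).

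The lumenal cofactors were near the threshold in 1 case. Psap encodes prosaposin, the precursor of saposins that present sphingolipids to their hydrolases, and was the most abundant gene of the list. In HA 1 to 4 Psap measured 1263, 1267, 1187 and 1142 FPKM, and in TABS 1 to 4 1349.7, 1400.1, 1424 and 1405. The groups did not overlap and the mean was 1.15 times higher in TABS (1395 ± 31.9 FPKM on TABS and 1215 ± 60.8 on HA, mean ± SD of n = 4), yet Psap did not pass (log2 fold change 0.20 with SE 0.05, limma adjusted p = 0.0555). Npc2, which hands cholesterol to NPC1, ran between 54.5 and 57.3 FPKM on TABS and between 48.3 and 54.0 on HA (0.09, limma adjusted p = 0.261), and Grn, the progranulin gene, from 98.6 to 121 and from 97.2 to 109 (0.09, limma adjusted p = 0.453). Of these 3 tested genes 0 were called in limma. At an unadjusted p under 0.05, 1 was higher and 0 lower (33.3% and 0%, against 13.2% and 10.8% of all tested genes). Rescaled to TPM, Psap passed (adjusted p = 0.0240 in limma), and it passed after the correction for GC content described further on.

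Of 6 tested membrane proteins 1 rose (16.7%, against 4.49% of all tested genes) and 0 fell. Npc1 exports cholesterol from the lysosomal lumen, downstream of the acid lipase encoded by Lipa. TABS 1 to 4 gave 23.1, 24.1, 24.0 and 23.7 FPKM for Npc1, and HA 1 to 4 gave 18.3, 19.9, 19.7 and 19.2. All TABS libraries were above all HA libraries (log2 fold change 0.29 with SE 0.04, limma adjusted p = 0.00383), and the call held in all 19 alternatives (adjusted p at most 0.0383). Lamp1, a heavily glycosylated protein of the limiting membrane, was the most abundant membrane gene. Lamp1 stood at 626, 605, 579 and 583 FPKM in TABS 1 to 4 and at 491, 549, 544 and 529 in HA 1 to 4. Its groups did not overlap either, but it did not pass (log2 fold change 0.18 with SE 0.05, limma adjusted p = 0.0722). Lamp2, which also serves chaperone-mediated autophagy, had the opposite sign with overlapping groups. In HA 1 to 4 Lamp2 measured 38.1, 38.9, 39.4 and 45.8 FPKM, and in TABS 1 to 4 40.2, 38.4, 36.1 and 36.6. HA 4 was the highest of the 8 libraries in Lamp2 (log2 fold change -0.10 with SE 0.06, limma adjusted p = 0.397). The remaining 3 overlapped: Cd63, a tetraspanin (316 to 382 FPKM in TABS and 307 to 356 in HA, 0.04), Scarb2, the receptor that sorts glucocerebrosidase (-0.02), and Mcoln1, a calcium channel of the lysosome (0.06). Exons of Npc1 share 511 of 11317 bases with those of Rmc1, which stood at 4.16 FPKM on TABS and 4.22 on HA (log2 fold change -0.01, limma adjusted p = 0.918).

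None of the V-ATPase genes passed. Of 15 genes 0 were called in limma, where 4.49% of all tested genes were called higher, so a count of 0 among so few is near the background and does not set them apart. At an unadjusted p under 0.05, 3 of 15 were higher (20%, against 13.2% of all tested genes) and 0 lower. Their log2 fold changes ran from -0.11 (Atp6v0e) to 0.16 (Atp6ap1), with 95% intervals that reached from -0.27 to 0.31 at their widest. The median was 0.05, and 11 of 15 were positive. Atp6v0a1, an isoform of the large membrane subunit of the V0 sector through which protons pass, had the smallest adjusted p. TABS 1 to 4 gave 13.1, 12.6, 12.7 and 12.5 FPKM for Atp6v0a1, and HA 1 to 4 gave 11.5, 12.0, 11.1 and 10.9. It was the one V-ATPase gene of 15 with all TABS libraries above all HA libraries (6.67%, against 10.8% of all tested genes). Its log2 fold change was 0.15 with SE 0.04 (limma adjusted p = 0.0691), and it passed after rescaling to TPM. Atp6v1b2, a subunit of the V1 sector that hydrolyses ATP, overlapped between groups. Atp6v1b2 stood at 34.0, 32.7, 34.2 and 35.3 FPKM in TABS 1 to 4 and at 29.6, 32.8, 32.3 and 31.3 in HA 1 to 4. Only TABS 2 fell within the HA range, just below HA 2 (log2 fold change 0.11 with SE 0.04, limma adjusted p = 0.171). Atp6ap1, an accessory protein of pump assembly, had the largest log2 fold change of the 15. In HA 1 to 4 Atp6ap1 measured 97.7, 100.2, 99.2 and 84.4 FPKM, and in TABS 1 to 4 107, 97.7, 111 and 111. HA 4 was far below the other HA libraries, and TABS 2 fell within the HA range (log2 fold change 0.16 with SE 0.07, limma adjusted p = 0.177).

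Levels of the pump genes spanned a wide range on both scaffolds. Atp6v1g1, a peripheral stalk subunit, was the most abundant (172 ± 8.50 FPKM on TABS and 162 ± 8.43 on HA, mean ± SD of n = 4), and Atp6v1h, a regulatory V1 subunit, the least (7.52 ± 0.443 FPKM on TABS and 7.77 ± 0.804 on HA, mean ± SD of n = 4). Ordered by mean FPKM, the 15 genes kept their places on both scaffolds except for Atp6v1f and Atp6ap1, whose ranges overlapped. Subunits of the V0 sector had a median log2 fold change of 0.00 (5 genes) and those of V1 of 0.05 (8 genes). Atp6v1a, the catalytic subunit, and Atp6v0c, which forms the proton-carrying ring, had values of -0.09 and 0.00, with 95% intervals of -0.24 to 0.05 and -0.17 to 0.17.

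**Figure D3:**
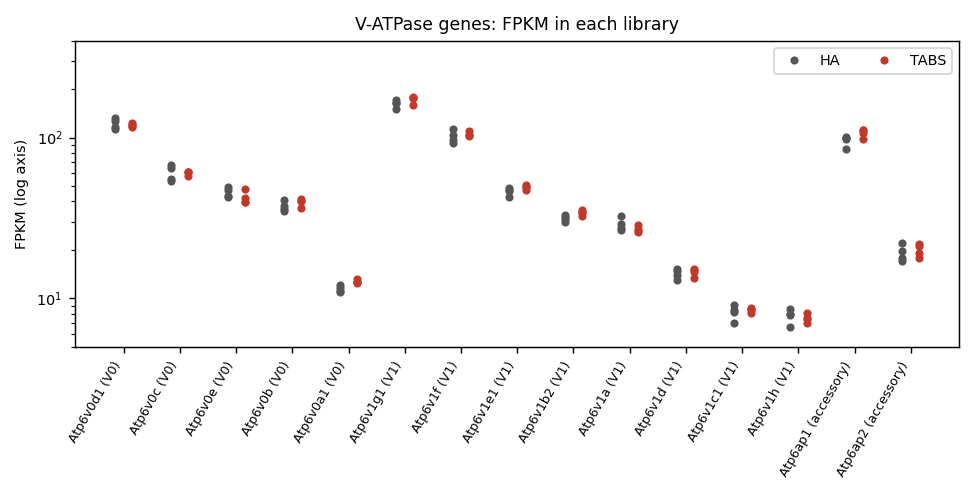
FPKM of the 15 V-ATPase genes (log axis) in each HA library (grey) and each TABS library (red), ordered by HA mean within the V0 sector, the V1 sector and the accessory proteins. The red and grey points overlap in every gene except Atp6v0a1, and levels run from under 10 FPKM (Atp6v1c1 and Atp6v1h) to 178 FPKM (Atp6v1g1).

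The TFEB family showed no called change. Of 3 genes 0 passed in limma. At an unadjusted p under 0.05, 1 was higher and 0 lower (33.3% and 0%, against 13.2% and 10.8% of all tested genes). TABS 1 to 4 gave 3.03, 3.38, 3.28 and 3.39 FPKM for Tfeb, and HA 1 to 4 gave 3.36, 3.47, 3.00 and 2.62. The groups overlapped (log2 fold change 0.06 with SE 0.07, limma adjusted p = 0.672). Tfe3 was the most abundant of the 3. Tfe3 stood at 5.34, 4.49, 4.94 and 5.21 FPKM in TABS 1 to 4 and at 4.37, 4.75, 4.19 and 4.06 in HA 1 to 4. The lowest Tfe3 value in TABS, in TABS 2, fell below the highest HA value, in HA 2 (log2 fold change 0.17 with SE 0.06, limma adjusted p = 0.137). Mitf, the family's regulator of melanocytes and osteoclasts, was lowest. In HA 1 to 4 Mitf measured 2.02, 2.30, 2.55 and 2.57 FPKM, and in TABS 1 to 4 2.50, 2.28, 2.43 and 2.27. Its groups overlapped fully (log2 fold change 0.01 with SE 0.06, limma adjusted p = 0.951). These are transcript levels, and the location or activity of the proteins was not measured.

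The separation of the groups was visible library by library. Summed over all 56 genes, the list took 1.40% to 1.45% of a library's FPKM in TABS and 1.22% to 1.30% in HA, with no overlap. Psap alone supplied a large part of that sum, and without it the shares were 0.940% to 0.978% and 0.854% to 0.900%. The V-ATPase genes took 0.262% to 0.273% in TABS and 0.243% to 0.260% in HA, without overlap, but their summed FPKM did overlap (803.7 to 833.5 in TABS and 760.8 to 812.3 in HA). For the whole list the sums, 4274 to 4407 FPKM in TABS and 3811 to 4079.7 in HA, did not. The total of all FPKM values moved with the groups, between 304893 and 307263 on TABS and between 312629 and 317439 on HA, and its part in these shares was not tested. HA 1 was the highest or lowest HA library in 37 of the 52 tested genes (71.2%, against 60.4% of all tested genes), HA 4 in 35 (67.3%, against 62.7%) and HA 3 in 8 (15.4%, against 37.4%).

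**Figure D4:**
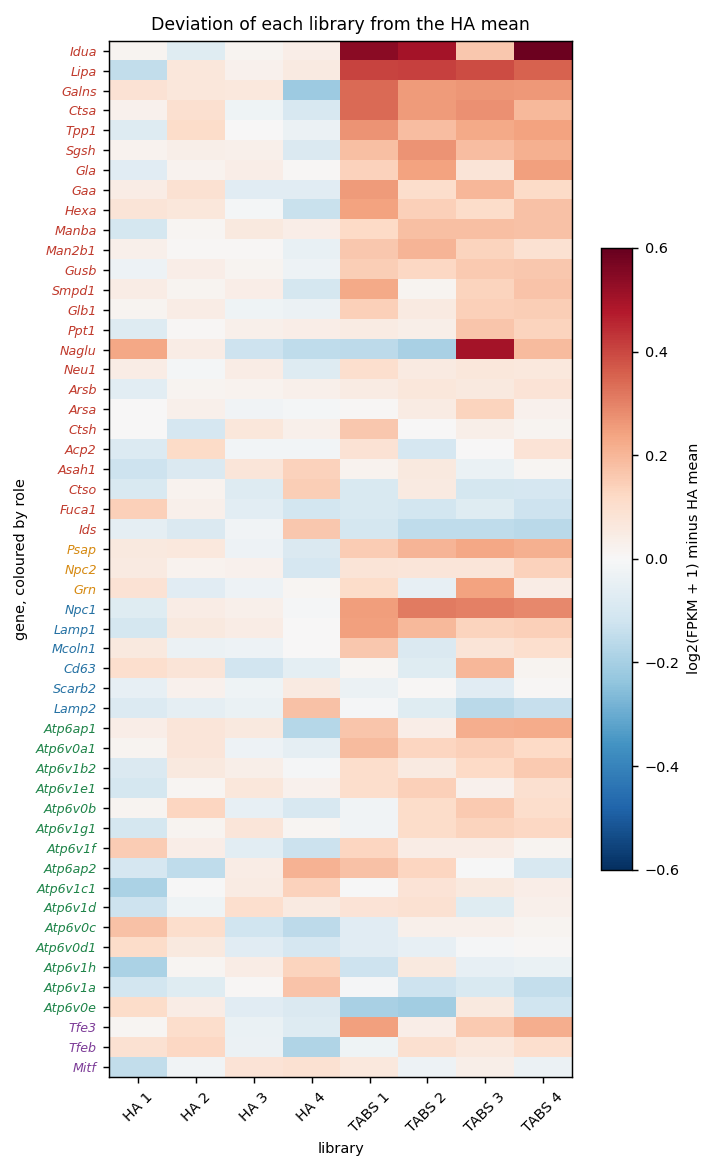
Deviation of each library (columns) from the HA mean of the gene (rows), in units of log2(FPKM + 1), for the 52 tested genes coloured by role; red is higher and blue lower. The 4 TABS columns are red through the hydrolases that rose and Npc1, and mixed through the V-ATPase and TFEB-family genes; Naglu stands out in TABS 3 alone.

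Fold changes in these libraries moved with transcript GC content. Across the 11277 tested genes with a GC value, Spearman's rho between GC content and log2 fold change was 0.35, and across the 52 genes of the list it was 0.39. These are descriptions across genes, which share the same 8 libraries and are not independent. Median GC content was 52.2% for the hydrolases and 48.2% for the V-ATPase genes, against 49.8% for all tested genes. After each library's deviations were corrected for GC content and transcript length, rho was 0.01 for all genes and 0.03 for the list.

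With that correction, 9 genes of the list were called higher and 0 lower, against 4.32% and 4.01% of all tested genes. Of the 8 calls, 6 were shared: Lipa (log2 fold change 0.45, limma adjusted p = 0.000622), Npc1 (0.29, 0.00386), Ctsa (0.20, 0.0223), Tpp1 (0.20, 0.0237), Galns (0.23, 0.0351) and Idua (0.39, 0.0457). Lipa, with a GC content of 42.2%, had a larger value than before the correction, while those of Ctsa, Tpp1, Galns and Idua were smaller. Sgsh (0.14, limma adjusted p = 0.0687) and Gusb (0.10, 0.0506) were lost. Gla (0.18, adjusted p = 0.0297), Manba (0.14, 0.0436) and Psap (0.15, 0.0369) were gained. The glycosaminoglycan enzymes then had 2 calls of 7. Median log2 fold changes after correction were 0.10 for the hydrolases, 0.07 for the V-ATPase genes and 0.08 for the whole list, so the gap between hydrolases and pump genes was smaller than before. That gap was not tested.

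**Figure D5:**
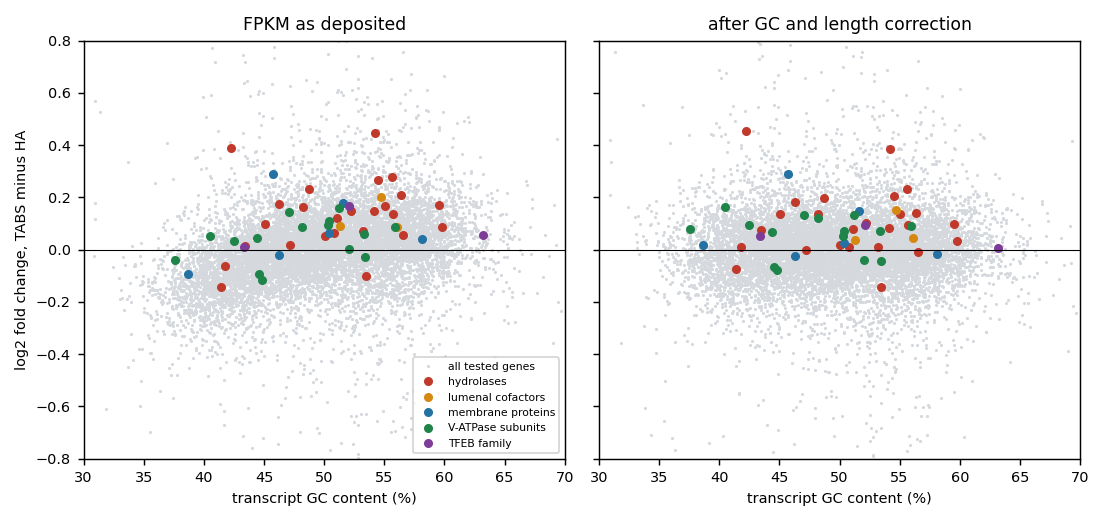
Log2 fold change (TABS minus HA) against transcript GC content for all tested genes (grey) and the lysosomal genes by role, before (left) and after (right) the correction for GC content and length; 54 of 11277 genes lie outside the axes. The grey cloud tilts upward on the left (rho 0.35) and is level on the right (rho 0.01), while Lipa, Idua and Npc1 stay near the top of the lysosomal points in both.

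Genes of the same pathway outside the list were read from the same fit. The machinery that tags enzymes with mannose 6-phosphate and sorts them had 2 of 20 genes higher (10%, against 4.49% of all tested genes) and 0 lower, with a median log2 fold change of 0.06. Igf2r, the large receptor that carries tagged hydrolases from the Golgi, had the smallest adjusted p. TABS 1 to 4 gave 34.8, 35.0, 34.9 and 33.6 FPKM for Igf2r, and HA 1 to 4 gave 25.5, 26.5, 25.8 and 26.0. The groups were far apart relative to their spread (34.6 ± 0.651 FPKM on TABS and 25.9 ± 0.399 on HA, mean ± SD of n = 4; log2 fold change 0.40 with SE 0.03, limma adjusted p = 0.000590), and the call held in all 19 alternatives (adjusted p at most 0.0151). Sort1, sortilin, a sorting receptor that also carries prosaposin, rose from low levels. Sort1 stood at 2.30, 2.03, 1.76 and 1.85 FPKM in TABS 1 to 4 and at 1.001, 1.32, 1.22 and 1.28 in HA 1 to 4. All TABS libraries were above all HA libraries (log2 fold change 0.44 with SE 0.07, limma adjusted p = 0.00859). The call on Sort1 was lost with the replicate numbers fitted as a block (limma adjusted p = 0.0625), and with that block and the GC correction (0.0699). Ap3d1, a subunit of an adaptor for lysosomal membrane cargo, did not pass (0.10, adjusted p = 0.112 in limma).

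Among 25 tested hydrolases and cofactors outside the list, 2 were called higher and 1 lower (8% and 4%, against 4.49% and 2.90% of all tested genes), with a median log2 fold change of 0.05. At an unadjusted limma p under 0.05, 3 were higher (12%) and 1 lower (4%), against 13.2% and 10.8% of all tested genes. Every TABS library lay above every HA library in 2 of the 25 (8%), against 10.8% of all tested genes. Smpdl3b, a membrane-anchored relative of acid sphingomyelinase, fell from 12.9 ± 1.25 on HA to 8.96 ± 0.575 FPKM on TABS (SD, n = 4; log2 fold change -0.48 with SE 0.07, limma adjusted p = 0.00492), and this call held in all 19 alternatives.

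Among 15 tested V-ATPase subunits and assembly factors outside the list 1 was called higher (6.67%, against 4.49% of all tested genes) and 0 lower. Tcirg1, the V0 subunit isoform prominent in osteoclasts, was called higher (9.04 ± 0.183 FPKM in HA and 10.8 ± 0.833 in TABS; log2 fold change 0.23 with SE 0.05, limma adjusted p = 0.0404). The call was lost when any one library other than TABS 2 was left out (adjusted p from 0.0644 to 0.104), without the low-FPKM filter (0.0830) and after the GC correction (0.0585). It was also lost with the replicate block (limma adjusted p = 0.124), and with block and correction together (0.158). Ncoa7 and Oxr1, related proteins that bind the pump, had log2 fold changes of -0.26 and -0.20 (limma adjusted p = 0.0910 and 0.184). Of 28 tested lysosomal membrane proteins and transporters outside the list, 0 were called in limma, with 6 at an unadjusted p under 0.05 (4 higher, 14.3%, and 2 lower, 7.14%, near the 13.2% and 10.8% of all tested genes). Closest was Stard3, a cholesterol-binding protein of late endosomes (0.19, adjusted p = 0.0507 in limma), ahead of the cation channel gene Tpcn1 (0.15, 0.0817) and Tmem106b (-0.18, 0.139).

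Nutrient sensing on the lysosomal surface and control of TFEB had 1 of 29 tested genes higher (3.45%, against 4.49% of all tested genes) and 0 lower, with a median log2 fold change of 0.02, so the list does not stand apart from the background. Fnip2, a partner of folliculin in that control, rose from 6.24 ± 0.620 on HA to 7.74 ± 0.224 FPKM on TABS (SD, n = 4; log2 fold change 0.28 with SE 0.06, limma adjusted p = 0.0326), a call lost when any one TABS library, HA 1 or HA 2 was left out (adjusted p from 0.0653 to 0.0826) and without the low-FPKM filter (0.0771). The replicate block lost the Fnip2 call too (limma adjusted p = 0.115), also together with the GC correction (0.110). Rptor and Mtor, core genes of the mTORC1 kinase complex, had log2 fold changes of 0.14 and 0.15 (adjusted p = 0.0684 and 0.0734 in limma). Of 21 tested genes of lysosome tethering and positioning 0 were called in limma, with 3 at an unadjusted p under 0.05, all higher (14.3%, against 13.2% of all tested genes). Those with the smallest adjusted p were Plekhm1 (0.17, 0.0796), a tethering adaptor, Snapin (0.20, 0.0870), a subunit of a complex that positions lysosomes, and Plekhm2 (0.11, 0.195), an adaptor to kinesin.

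Lysosomal genes are also abundant in macrophages and osteoclasts, so markers of these cells were read beside the results. Of 18 such markers 15 stayed below 1 FPKM in all 8 libraries, and Itgam, Tyrobp, Cx3cr1 and Aif1 were listed at 0 in all. Their sum was 26.0 to 30.6 FPKM in TABS and 30.4 to 33.7 in HA. Lyz2, the macrophage lysozyme gene, carried much of that sum and was itself called lower, at 10.7 to 15.9 FPKM in TABS and 17.6 to 19.8 in HA (log2 fold change -0.46 with SE 0.10, limma adjusted p = 0.0293, and 0.0322 after the GC correction). It was chosen after its values were seen, and the call was lost when TABS 2, TABS 3 or any one HA library was left out (adjusted p from 0.0526 to 0.0701), without the low-FPKM filter (0.0893) and with the replicate block (0.0888). Tcirg1, called higher, is described above. The part of these markers in the results was not tested. Without Lyz2, Tcirg1 and Mmp9, the 3 that reached 1 FPKM, it was 0.650 to 1.23 and 0.897 to 1.33, with overlapping groups. All 10 osteoblast markers were tested, with a sum of 5169 to 5742 FPKM in TABS and 5149 to 5415 in HA. The highest single value among them was 3569 FPKM, so the sum follows the most abundant markers. Of the 10, 1 was called higher (10%, against 4.49% of all tested genes) and 6 lower (60%, against 2.90%). Their median log2 fold change was -0.39. Library names carry the letters H for TABS and L for HA, which do not match the group names, and no gene checks the assignment. A swap would turn every direction given here.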

How the data were processed

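RNA sequencing values of 8 MC3T3-E1 libraries (4 TABS, 4 HA) were used. The deposited FPKM table was made by the authors. The submitters' processing notes name fastp, STAR, DESeq2 and GRCm38. Which program counted, its versions and its strand setting were not stated there, so reads of genes with overlapping exons (16 of the 56) cannot be told apart. Read totals were not in the table. Low values fell on whole steps, within 0.02 of a step, in only 22.1% to 23.8% of cases, so read counts could not be recovered and count tests were left out.

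Of 55335 identifiers, 55154 matched GENCODE M21. The groups were compared with limma 3.58.1 (R 4.3.3, variance trend, two-sided) on log2(FPKM + 1) over all 11280 genes with at least 1 FPKM in at least 4 libraries, Benjamini-Hochberg adjusted, and the script was tested on simulated data. The GC and length correction fitted splines (4 degrees of freedom) to each library's deviations. The 19 alternatives were 11 settings (pseudocount, filters, scalings, variance models, the correction, a replicate block) and leaving out each of 8 libraries. Named genes were those that passed, the 3 with the smallest adjusted p per role and pathway list, and the TFEB family. The genes and lists were chosen with earlier results of these data known. Some genes taken by the rule for named genes are not reported here.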

Additional observations from a re-analysis of the deposited data

Results flagged for a closer look

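In each group of 4 libraries the gap between the highest or lowest library and its nearest neighbour was divided by the group's range and set against Dixon's 95% critical value for 4 values, over 138 groups of 4 (the lysosomal genes tested, the pathway genes named in the text and Lyz2, each in TABS and in HA). It was exceeded in 13 groups. Chance gives about 1 in 20 groups, and no cause was tested.

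Among the hydrolases, Galns was lowest in HA 4 (12.3 FPKM, the others 15.2 to 15.4) and highest in TABS 1 (18.5, the others 17.4 to 17.6). Sgsh was lowest in HA 4 (13.0, the others 14.0 to 14.2), and Arsb was lowest in HA 1 (21.7, the others 23.0 to 23.2). Glb1 (32.1, the others 34.2 to 34.3) was lowest in TABS 2 and Manba (4.99, the others 5.24 to 5.25) in TABS 1. Ctso was highest in TABS 2 (6.93, the others 6.12 to 6.19).

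Of the remaining genes of the list, Lamp2 was highest in HA 4 (45.8 FPKM, the others 38.1 to 39.4) and Npc2 in TABS 4 (57.3, the others 54.5 to 54.7). Atp6ap1 was lowest in HA 4 (84.4, the others 97.7 to 100.2) and Atp6v1g1 in TABS 1 (159.7, the others 175 to 178). Among the pathway genes, Plekhm2 was lowest in HA 4 (7.55, the others 8.20 to 8.25) and Igf2r in TABS 4 (33.6, the others 34.8 to 35.0). HA 4 accounted for 5 of the 13.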

How the results depend on the processing

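Under all 19 alternatives the count of lysosomal genes called lower was 0, and Lipa and Npc1 passed in each. The count called higher was 8 as reported, 17 after rescaling to TPM (hydrolases 13, against 7; all tested genes 915, against 506) and 3 to 7 with 1 library left out (hydrolases 2 to 6, all tested genes 247 to 429). All tested genes called lower, 327 as reported, came to 195 without the low-FPKM filter and to 168 to 289 with 1 library left out. The labels do not say whether the replicate numbers pair the libraries. Deviations of same-numbered libraries correlated at 0.10, 0.05, -0.10 and -0.06, within the -0.16 to 0.18 seen over all pairs of a TABS and an HA library. Such weak correlations cannot settle whether the libraries were paired. With the replicate block, 2 lysosomal genes (1 hydrolase) and 136 of all genes were higher and 94 lower, so 6 of the 8 lysosomal calls were lost. With the block and the GC and length correction together it was 2, 1, 170 and 161, and the same 6 calls were lost. The cause was not tested.

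Limits: the depth of each library is unknown, so no interval from read counts is given. With 4 libraries a group, the 95% intervals of the V-ATPase genes reached from -0.27 to 0.31. Genes below 1 FPKM in more than 4 libraries were not tested, and fold changes of genes with low FPKM, such as Idua, are understated.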

Other observations

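Some genes outside the list were split within a group in a way that the means do not show; they were chosen after their values were seen. Ctns, the lysosomal cystine transporter, stood at 16.3 and 13.6 FPKM in TABS 1 and TABS 2, and at 6.37 and 6.53 in TABS 3 and TABS 4. HA 1 to 4 gave 5.85 to 6.06 FPKM for Ctns (limma adjusted p = 0.173). Tmem9b, which is related to a regulator of the V-ATPase, stood at 18.5 and 15.3 FPKM in HA 2 and HA 4, while HA 1 and HA 3 gave 38.9 and 39.0 and the TABS libraries 39.3 to 41.2 (limma adjusted p = 0.206). Cap1, an actin-binding protein gene whose exons overlap those of Ppt1 by 129 bases, averaged 72.9 ± 4.22 FPKM on TABS and 105 ± 40.7 on HA (SD, n = 4), while Ppt1 stayed between 33.2 and 39.5 FPKM in all 8 libraries.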
